A study of Mus musculus with 16 samples.

Results

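Genistein at 120 µM was set against its solvent, 0.05% DMSO, in cultured fibroblasts of mice with mucopolysaccharidosis type I (MPS I). The comparison used 4 of the 16 arrays of the study: 2 from cultures given 120 µM genistein for 24 h and 2 from cultures given 0.05% DMSO alone. Every transcript cluster of the Clariom S mouse array that carried a gene symbol was compared, which were 22203 of the 28846 probe sets on each array (21902 symbols, 203 of them with several clusters). The cells of all groups were primary skin fibroblasts grown from tails of MPS I mice and kept in DMEM. No culture of healthy mice was among the groups, so the level of Idua could not check a label. The other cultures received 60 µM genistein, 60 or 120 µM kaempferol, or a 1:1 mixture of both at 60 or 120 µM in all, and a second solvent control held 0.1% DMSO. The labels number 2 biological replicates in each group. They do not tie the replicates to separate animals, so the p-values measure the spread between these cultures.

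MPS I is a lysosomal storage disease in which loss of the enzyme encoded by Idua, alpha-L-iduronidase, leaves heparan and dermatan sulfate undegraded in the lysosome. Genistein is an isoflavone known as an inhibitor of protein tyrosine kinases, among them the epidermal growth factor receptor, and as a poison of topoisomerase II. Lysosomal genes are known to share a promoter element, called CLEAR, that is bound by TFEB and its relatives, and mitotic genes are known to share a pair of elements, CHR and the CCAAT box, through which the DREAM complex and NF-Y act.

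Values are log2 signals as deposited, and each pair of values is given as replicate 1 and replicate 2. A log2 fold change (log2 FC) is the mean of the 2 genistein arrays minus the mean of the 2 DMSO arrays, with its standard error (SE). The fit held all 16 arrays, so the SE and the test take their spread from the other groups too. Adjusted p is limma's moderated test over all 22203 clusters after Benjamini-Hochberg, and rose or fell is used below an adjusted p of 0.05. A group whose 2 arrays both lay at or below the median of the array's negative control probes was treated as not well above background, so that a fold against it is a bound. Over the 16 arrays, 22.9 to 27.1% of the clusters were brighter than the negative controls at their 95th percentile, and the 2 arrays of a group correlated at r = 0.9958 for 120 µM genistein and 0.9961 for 0.05% DMSO. The median SE of a log2 FC was 0.19.

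Genistein at 120 µM changed 3495 clusters, or 15.7% of those tested: 1764 rose (7.94%) and 1731 fell (7.80%). Among these calls, 266 had neither group well above background and 232 had 1 group that was not. Of the rises, 455 were over 2-fold and 51 over 4-fold. Of the falls, 643 went below 0.5-fold and 96 below 0.25-fold. In a bulk culture, fewer cells of one state and less RNA in each cell cannot be told apart. By the fold criterion of the study's methods, above 1.3 or below 0.7 and with no test, 5336 clusters (24.0%) passed, 3241 higher (14.6%) and 2095 lower (9.44%). In 53.5% of all clusters the 2 pairs of arrays did not overlap (27.2% with genistein higher and 26.3% with it lower), so a lack of overlap was common. Leaving out 1 of the 4 arrays brought the number of calls to 2240 to 2445, lowest without genistein replicate 2, and 1545 clusters (726 rises and 819 falls) were called with all arrays and without each of the 4. Under the same test, 0.1% against 0.05% DMSO gave 1 call (0.00450%), while 2049 of 22203 clusters had an unadjusted p under 0.05. With 2 arrays per group, the single call does not show that the 2 solvent controls were alike.

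**Figure D1:**
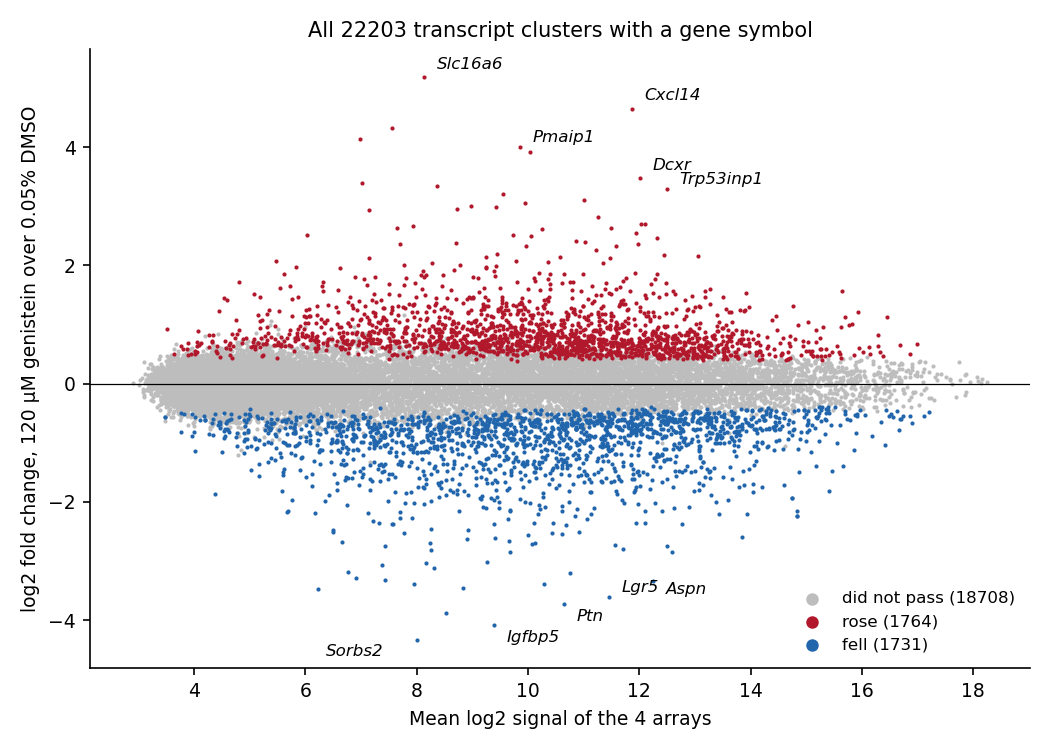
Log2 fold change of 120 µM genistein over 0.05% DMSO (vertical axis) against the mean log2 signal of the 4 arrays (horizontal axis) for 22203 transcript clusters. Each point is a cluster; the 1764 red points rose, the 1731 blue points fell and grey points did not pass the test, and changes lie at all signal levels.

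The genes at the top of the rise were varied, and included Pmaip1 (16.1-fold) and Trp53inp1 (9.83-fold) of the p53 list described below. Slc16a6, a monocarboxylate transporter, read 4.98 and 6.12 in DMSO and 10.53 and 10.92 in genistein. Its DMSO group was not well above background, and no genistein array came near it. Dcxr, an enzyme that reduces xylulose and dicarbonyls, read 10.43 and 10.13 against 13.73 and 13.79 (11.1-fold, log2 FC 3.48 ± 0.14, adjusted p = 1.7e-08). Crip2, a LIM domain protein, rose 9.20-fold from 8.04 and 7.88 to 11.20 and 11.12, with adjusted p = 5.2e-08. Neither gene overlapped between the groups, and the replicates of each lay close together. Scn3b, a sodium channel beta subunit, rose 8.05-fold (adjusted p = 6.6e-07), and Ano3, an anoctamin, rose 8.57-fold (adjusted p = 1.7e-06). Cxcl14, a chemokine, went from 9.13 and 9.98 to 14.08 and 14.32, the highest mean genistein signal (14.20) among the 15 largest rises. 1700007K13Rik, a gene without an assigned function here, went from 8.27 and 7.89 to 11.91 and 12.07 (adjusted p = 3.6e-07).

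The deepest falls included secreted factors and receptors of mesenchymal cells. Gas2, an actin-associated protein first found in growth-arrested fibroblasts, read 10.61 and 10.32 in DMSO and 6.75 and 6.44 in genistein (0.0685-fold, log2 FC -3.87 ± 0.24, adjusted p = 3.7e-07). Ptn, the heparin-binding growth factor pleiotrophin, dropped from 12.65 and 12.38 to 8.72 and 8.86, a 0.0755-fold level. Lgr5, a receptor for R-spondins, read 13.53 and 13.00 against 9.56 and 9.77 (0.0823-fold). All 3 were well above background in DMSO, and no genistein array came near the DMSO arrays. The genistein values of Gas2 lay close to the negative control medians of 6.74 and 6.71, so its fold rests on signals near the floor. Aspn, the small proteoglycan asporin, fell to 0.0988-fold, Sfrp2, a secreted Wnt antagonist, to 0.0957-fold, and Spp1, osteopontin, to 0.109-fold. Ednrb, an endothelin receptor, fell to at most 0.192-fold and Rgs2, which turns off G proteins, to at most 0.421-fold, since their genistein arrays were not well above background.

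Genes of the cell cycle were mostly lower. Of 82 genes of G2/M and mitosis, 69 fell and 2 rose, with a median log2 FC of -1.13 against 0.00 over all clusters. Plk1, the kinase that drives entry into and passage through mitosis, read 13.33 and 13.22 in DMSO and 11.24 and 10.59 in genistein (0.194-fold, log2 FC -2.36 ± 0.22, adjusted p = 5.8e-06). Ccna2, cyclin A2, went from 13.87 and 13.91 to 12.28 and 11.86 (0.284-fold, adjusted p = 1.1e-05). Mki67, the proliferation antigen Ki-67, went from 14.85 and 14.47 to 13.03 and 12.81 (0.298-fold, adjusted p = 9.1e-06). In all 3 the genistein arrays lay more than 1 log2 unit below the DMSO arrays. Aurkb, the kinase of the chromosomal passenger complex, fell to 0.291-fold, Prc1, the bundler of the central spindle, to 0.228-fold, and Foxm1, the transcription factor of mitotic genes, to 0.366-fold. Ccnb1, cyclin B1, and its kinase Cdk1 fell to 0.387 and 0.405-fold. Wee1, the kinase that holds Cdk1 inactive, fell to 0.666-fold and lost the call without genistein replicate 1 (adjusted p = 0.062). The 2 that rose were Pttg1, securin, at 2.33-fold (adjusted p = 4.8e-05) and Gtse1, a p53-regulated microtubule protein, at log2 FC 0.67, which was named after its value was seen.

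Promoter sequence was looked at for the mitotic genes because so many of them moved together. Windows of 300 bases, from 250 before to 50 after the start of each gene (RefSeq, build GRCm38.p6), were available for 16020 symbols of the array, and motifs were searched on both strands. The CHR letters TTTGAA stood in 38 of the 53 fallen mitotic genes with a window (71.7%), in 7 of the 9 that were not called (77.8%) and in 2833 of all 16020 windows (17.7%). The letters CCAAT stood in 37 of the 53 (69.8%), in 8 of the 9 (88.9%) and in 6723 of all windows (42.0%). The share was thus high in the list as a whole, called or not. The 150 bases before the start are shown for 4 fallen genes that held both, in the direction of transcription, with CCAAT (or ATTGG, its reverse) and TTTGAA in capitals; Prc1 lies at chr7:80294326-80294475 (plus strand), Mki67 at chr7:135716380-135716529 (minus), Cdc20, the activator of the anaphase-promoting complex, at chr4:118437344-118437493 (minus) and Cdk1 at chr10:69352913-69353062 (minus). No CCAAT and TTTGAA letters overlapped in them.
Prc1: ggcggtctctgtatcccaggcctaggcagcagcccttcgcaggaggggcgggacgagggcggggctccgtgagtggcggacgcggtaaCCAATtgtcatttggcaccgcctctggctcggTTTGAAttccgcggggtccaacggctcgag
Mki67: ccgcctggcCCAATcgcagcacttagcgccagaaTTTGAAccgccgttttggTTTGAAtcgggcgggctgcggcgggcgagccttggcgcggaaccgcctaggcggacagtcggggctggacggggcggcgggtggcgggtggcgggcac
Cdc20: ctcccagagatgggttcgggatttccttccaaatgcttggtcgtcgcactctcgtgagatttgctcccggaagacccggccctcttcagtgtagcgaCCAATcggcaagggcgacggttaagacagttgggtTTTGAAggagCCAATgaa
Cdk1: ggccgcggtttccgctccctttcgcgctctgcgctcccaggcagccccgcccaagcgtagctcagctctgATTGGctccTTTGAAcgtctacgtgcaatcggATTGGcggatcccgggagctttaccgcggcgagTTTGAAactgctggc

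Histone and replication genes fell too. Of 65 replication-dependent histone genes, whose RNA is made mostly in S phase, 53 fell and 2 rose (median log2 FC -1.47). Hist1h2bf read 13.97 and 13.93 in DMSO and 11.80 and 11.37 in genistein (0.194-fold, adjusted p = 4.1e-06), and Hist2h3c1 fell from 16.01 and 15.91 to 14.08 and 13.37 (0.212-fold). Histone genes of a class are near-identical, so signal may be shared among copies and single members are uncertain. Some copies, such as Hist2h3c1 and Hist2h3c2, gave the same values on the 4 arrays, so the falls count some signals more than 1 time. The falls also include Hist3h2ba and the pseudogene Hist3h2bb-ps, which were not well above background in either group. The 2 that rose, named after their values were seen, were Hist1h2be (log2 FC 1.02) and Hist1h4h (0.87); the number of rises was 1 without either genistein array or without DMSO replicate 1, and 0 without DMSO replicate 2. Of 48 genes of DNA replication and nucleotide supply, 21 fell and 0 rose (median -0.53; at an unadjusted p under 0.05, 31 were lower and 0 higher). The fall count was 8 without genistein replicate 2, 9 without DMSO replicate 1 and 12 without DMSO replicate 2. Tk1, thymidine kinase, fell to 0.407-fold (8.31 and 8.38 against 7.17 and 6.93, adjusted p = 6e-05), Uhrf1, which reads hemimethylated DNA, to 0.342-fold and Mcm6, a helicase subunit, to 0.425-fold. Mcm2 (log2 FC -0.31, adjusted p = 0.20) and Cdc6 (-0.78, adjusted p = 0.081) did not pass the test.

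Regulators of the G1 phase moved in both directions, with 4 of 27 rising and 9 falling. Ccne1, cyclin E1, fell from 10.84 and 10.83 to 9.38 and 9.02 (0.322-fold, adjusted p = 1.4e-05). Cdk6, a partner of D-type cyclins, fell to 0.405-fold and E2f8, a repressive E2F, to 0.297-fold. Rb1, the retinoblastoma protein, rose from 10.35 and 10.30 to 11.57 and 11.71 (2.49-fold, adjusted p = 1.2e-05). Its relative Rbl2 gave log2 FC 0.38 ± 0.16 and did not pass (adjusted p = 0.14). Cdkn1a, the Cdk inhibitor p21, rose 2.31-fold (15.26 and 15.38 against 16.48 and 16.58, adjusted p = 2.8e-05), while Cdkn1b, p27, gave log2 FC -0.51 with adjusted p = 0.059. Ccnd2, cyclin D2, rose 1.63-fold but not without DMSO replicate 2 (adjusted p = 0.12) or genistein replicate 2 (0.13). E2f1 rose 1.46-fold, a call lost without DMSO replicate 2 (adjusted p = 0.36) and without genistein replicate 1 (0.12) or 2 (0.18). The number of rises was 2 without genistein replicate 2 or DMSO replicate 2, and the number of falls was 5 without genistein replicate 2 or DMSO replicate 1.

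Genes of DNA repair were mixed: 12 of 47 fell and 5 rose (median -0.22). Fancb and Fanci, of the Fanconi anemia pathway, fell to 0.366 and 0.465-fold, and Chek1, the checkpoint kinase of replication stress, to 0.549-fold (adjusted p = 0.0014). Lig4, the ligase of end joining, rose 1.87-fold (adjusted p = 0.00069), and Top1, topoisomerase I, named after its value was seen, with a log2 FC of 0.75. Top2a, the topoisomerase II of dividing cells, read 11.63 and 11.26 against 10.85 and 10.42 (0.569-fold, adjusted p = 0.018), a call lost without DMSO replicate 1 (adjusted p = 0.16) and genistein replicate 2 (0.17). Its paralog Top2b gave log2 FC -0.12 (adjusted p = 0.79). The rises numbered 1 without DMSO replicate 2, 2 without genistein replicate 2 and 3 without DMSO replicate 1, and the falls numbered 5 without genistein replicate 2 and 6 without DMSO replicate 1.

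Targets of p53, the transcription factor that stops the cycle or starts apoptosis after damage, went the other way. Of 37 genes, Trp53 included, 27 rose and 1 fell, with a median log2 FC of 1.16. Pmaip1, the apoptosis inducer Noxa, read 7.65 and 8.07 in DMSO and 11.97 and 11.78 in genistein (16.1-fold, log2 FC 4.01 ± 0.22, adjusted p = 1.5e-07). Trp53inp1, which activates p53, read 10.95 and 10.75 against 14.09 and 14.21 (9.83-fold, adjusted p = 7.5e-07). Mdm2, the ubiquitin ligase of p53, read 14.82 and 14.91 against 16.43 and 16.40 (2.94-fold, adjusted p = 5.2e-06). Each of the 3 was well separated from DMSO. Eda2r, a death receptor of the TNF family, rose 6.50-fold, Btg2, an antiproliferative factor, 6.18-fold, Gadd45a, a stress-response gene, 5.86-fold, Phlda3, a repressor of Akt, 4.99-fold and Ccng1, cyclin G1, 2.17-fold. Trp53 itself was level: 15.58 and 15.82 in DMSO, 15.56 and 15.79 in genistein (log2 FC -0.02 ± 0.17, adjusted p = 0.96). The gene that fell was Cd82, a tetraspanin, at log2 FC -0.72, named after its value was seen, and without DMSO replicate 1 the list had 0 falls. The p53 decamer, searched by that name, stood in 9 of the 21 risen members with a promoter window (42.9%) and in 1371 of all windows (8.6%). The list was chosen as targets of p53, and the share among members that did not rise was not counted. The share therefore does not bear on which members rose.

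**Figure D2:**
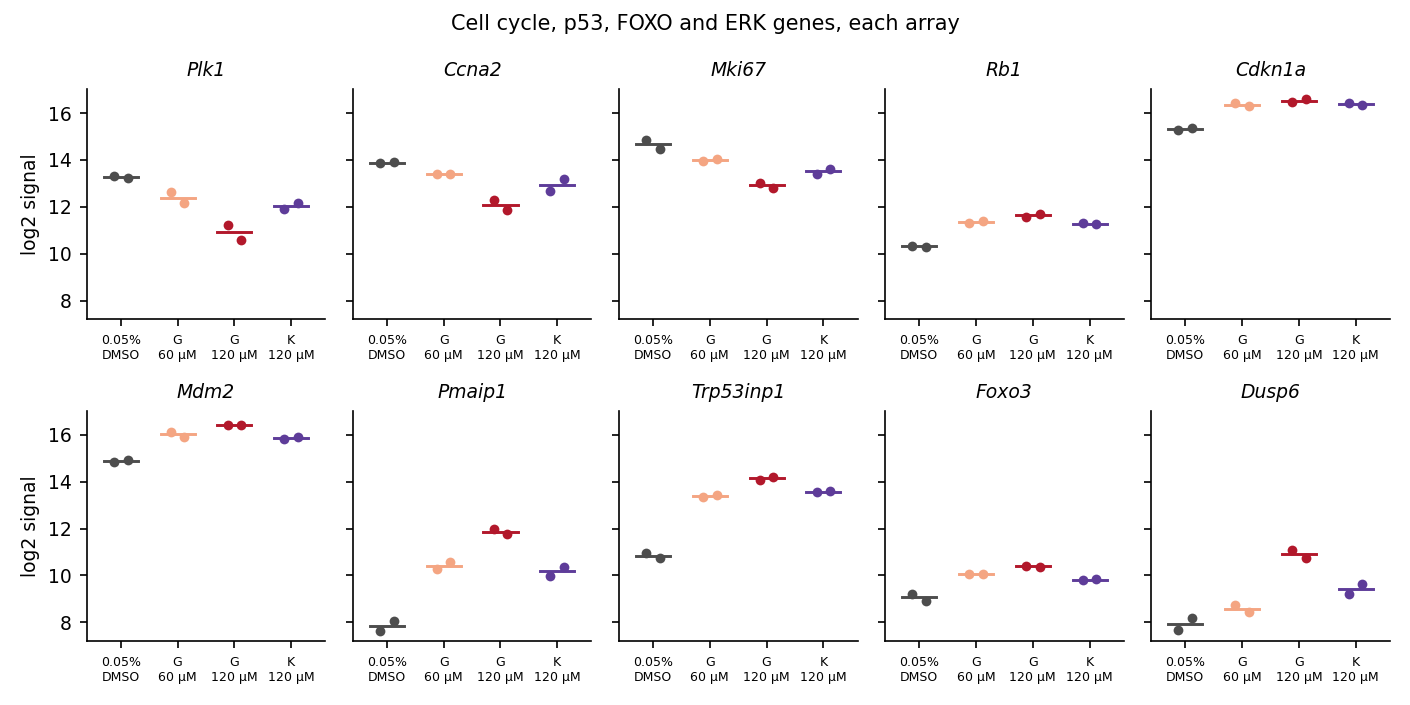
Log2 signal (vertical axis) of 10 genes of the cell cycle, p53, FOXO and ERK groups on each array of 0.05% DMSO, 60 and 120 µM genistein (G) and 120 µM kaempferol (K). Points are arrays and lines are the means of 2; Plk1, Ccna2 and Mki67 are lowest at 120 µM genistein, while Pmaip1, Trp53inp1 and Dusp6 are highest there.

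Genes controlled by FOXO factors, which growth factor signalling through Akt keeps out of the nucleus, rose in 10 of 19 cases and fell in 0 (median 0.66; 13 higher and 0 lower at an unadjusted p under 0.05). Foxo3 itself rose from 9.22 and 8.91 to 10.41 and 10.38 (2.51-fold, adjusted p = 1.4e-05), while Foxo1 read 9.21 and 8.92 against 9.24 and 8.83 and did not pass (adjusted p = 0.95). Bcl6, a repressor, rose 5.21-fold, Sesn3, a sestrin, 3.30-fold, Ccng2, cyclin G2, 2.44-fold, Bcl2l11, the death factor Bim, 2.36-fold and Pdk4, which restrains pyruvate dehydrogenase, 2.25-fold. Ccng2 is also on the p53 list. Fbxo32, an atrophy-linked ubiquitin ligase, rose 2.09-fold, but its adjusted p was 0.24 without DMSO replicate 1, 0.14 without genistein replicate 1 and 0.069 without genistein replicate 2.

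Feedback and immediate early genes of the ERK pathway rose more often than they fell, 10 against 3 of 33 (median 0.31; 6 rises without DMSO replicate 1, and 1 fall without genistein replicate 2 or DMSO replicate 2). Dusp6, the phosphatase that switches off ERK, read 7.66 and 8.19 in DMSO and 11.07 and 10.75 in genistein (7.90-fold, log2 FC 2.98 ± 0.24, adjusted p = 1.8e-06). Junb rose 3.87-fold and Fos 3.73-fold, both parts of the AP-1 factor, and Etv5, an ETS factor, 2.50-fold. Phlda1 rose 4.03-fold, from 7.49 and 8.06 to 9.92 and 9.65. The direction did not hold for the whole list. Dusp7, another ERK phosphatase, fell to 0.397-fold (adjusted p = 1.7e-05) and Fosl1, an AP-1 member, to 0.416-fold, the latter not called without DMSO replicate 2 (adjusted p = 0.061) or genistein replicate 2 (0.059). The feedback inhibitors Spry2 (log2 FC -0.38, adjusted p = 0.15) and Spry4 (0.47, adjusted p = 0.086) did not pass. The third fall was Spry1 at log2 FC -0.61, named after its value was seen. Areg, a further rise named after its value was seen, was not well above background in either group.

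Among growth factors and their receptors, 12 of 41 fell and 5 rose; the rises numbered 2 when any 1 of the 4 arrays was left out. Besides Ptn, the falls took in Angpt4, an angiopoietin (0.303-fold, adjusted p = 2.6e-05), Pdgfc, a PDGF ligand (0.327-fold), Flt1, a VEGF receptor (0.345-fold) and Figf, the ligand VEGF-D (0.453-fold). The PDGF receptors, through which fibroblasts are driven to divide, fell less: Pdgfra from 10.32 and 10.29 to 9.38 and 9.23 (0.50-fold, adjusted p = 0.0014) and Pdgfrb from 15.80 and 15.81 to 15.13 and 15.08 (0.616-fold, adjusted p = 0.0022). Egfr, the epidermal growth factor receptor, gave log2 FC 0.07 ± 0.21 (adjusted p = 0.89) and Fgfr1 0.30 ± 0.15 (adjusted p = 0.23). Fgf2, a fibroblast growth factor, rose 2.25-fold, with adjusted p = 0.056 without DMSO replicate 1. Vegfa, the vascular growth factor, rose 1.48-fold, a call lost without any 1 array (adjusted p of 0.055 to 0.19). The other 3 rises, named after their values were seen, were Hgf (log2 FC 0.98), Gdnf (0.77) and Pdgfa (0.61), ligands of the receptors Met, Ret and Pdgfra.

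In the insulin-like growth factor system, 7 of 21 fell and 3 rose. The binding proteins, which hold the ligands in the medium and matrix, differed in direction. Igfbp5 read 11.32 and 11.53 in DMSO and 7.01 and 7.69 in genistein, and Igfbp6 fell from 8.06 and 8.17 to 6.83 and 6.70 (0.391-fold, adjusted p = 0.00062). Igfbp2 rose 1.75-fold, a call lost without DMSO replicate 1 (adjusted p = 0.18) and genistein replicate 1 (0.19). Insr, the insulin receptor, rose 1.58-fold (12.60 and 12.37 against 13.08 and 13.21, adjusted p = 0.0036). Irs2, its substrate, rose 1.85-fold, with adjusted p = 0.063 without DMSO replicate 2 and 0.092 without genistein replicate 2. The ligand Igf1 (log2 FC 0.36, adjusted p = 0.18) and its receptor Igf1r (0.35, adjusted p = 0.18) did not pass.

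Lysosomal genes rose in part. Of 41 hydrolases and their activators, 12 rose and 0 fell, and of 31 genes of the lysosomal membrane and of sorting to it, 14 rose and 0 fell; the medians were only 0.18 and 0.25. At an unadjusted p under 0.05, 14 hydrolases were higher and 3 lower, and 15 membrane genes higher and 1 lower; without DMSO replicate 1 the membrane list had 1 fall. Neu1, the lysosomal sialidase, read 9.47 and 9.38 in DMSO and 10.78 and 11.23 in genistein (2.99-fold, log2 FC 1.58 ± 0.17, adjusted p = 2.3e-05). Fuca1, a fucosidase, rose from 11.02 and 11.06 to 12.39 and 12.36 (2.53-fold, adjusted p = 1.5e-05) and Aga, which cleaves asparagine-linked sugars, from 13.22 and 13.32 to 14.44 and 14.57 (2.35-fold). These levels did not overlap between groups. The thioesterase Ppt1 and the protease Ctsf both rose 2.33-fold, the mannosidase Man2b1 1.84-fold, the galactosidase Gla 1.68-fold and the proteases Tpp1 and Ctsd 1.56 and 1.53-fold. Other abundant proteases stayed short of the threshold, with Ctsb at log2 FC 0.39 (adjusted p = 0.084), Ctsl at 0.20 (0.44) and Ctsk at -0.42 (0.25), and the lipase Lipa gave -0.21 (0.48).

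On the lysosomal membrane, Cd68, a heavily glycosylated protein known best from macrophages, read 8.45 and 8.40 in DMSO and 11.42 and 11.53 in genistein (8.28-fold, adjusted p = 4.7e-07). The macrophage markers Ptprc, Adgre1 and Csf1r were not well above background in either group. Of the 11 macrophage markers other than Cd68, 3 were well above background in at least 1 group. Of the 12 macrophage markers Cd68 was the only one that passed the test, and the other 11 averaged 5.50 and 5.43 in DMSO and 5.60 and 5.30 in genistein. Mcoln1, the calcium channel mucolipin-1, rose from 12.79 and 12.74 to 14.09 and 14.37 (2.75-fold, adjusted p = 4.5e-05). Ostm1, the partner of the chloride exchanger ClC-7, rose 2.41-fold, the sorting receptor Sort1 1.96-fold, the sialic acid exporter Slc17a5 1.86-fold, Scarb2, the carrier of glucocerebrosidase, 1.73-fold, the cholesterol exporter Npc1 1.69-fold and the cystine exporter Ctns 1.68-fold. The main membrane glycoproteins Lamp1 (log2 FC 0.17, adjusted p = 0.46) and Lamp2 (0.25, adjusted p = 0.24) did not pass. Of 25 subunits of the V-ATPase, the proton pump of the lysosome, 8 rose and 0 fell; the rises numbered 4 without genistein replicate 2 and 5 without DMSO replicate 1, and 11 were higher and 1 lower at an unadjusted p under 0.05. Atp6v1a, its catalytic subunit, rose 2.02-fold (adjusted p = 0.00037) and Atp6v0e2 2.65-fold (adjusted p = 3.3e-05).

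The core of the CLEAR element, TCACGTGA, was searched in the same promoter windows. It stood in 7 of the 28 risen genes with a window among hydrolases, glycosaminoglycan-degrading enzymes, membrane proteins and V-ATPase (25.0%), in 5 of the 58 that were not called (8.6%) and in 229 of all 16020 windows (1.4%). The 150 bases before the start are shown for 3 risen genes that held it, with TCACGTGA in capitals: Mcoln1 at chr8:3500369-3500518 (plus strand), Atp6v1a at chr16:44139260-44139409 (minus) and Gnptg, a subunit of the transferase that tags hydrolases for the lysosome, at chr17:25240117-25240266 (minus). Gnptg rose 1.87-fold, a call lost without DMSO replicate 1 (adjusted p = 0.10) and genistein replicate 2 (0.085). In each of the 3 the letters occurred once.
Mcoln1: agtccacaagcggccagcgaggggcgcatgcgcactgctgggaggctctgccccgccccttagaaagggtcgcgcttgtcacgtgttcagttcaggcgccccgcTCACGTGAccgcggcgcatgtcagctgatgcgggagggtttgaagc
Atp6v1a: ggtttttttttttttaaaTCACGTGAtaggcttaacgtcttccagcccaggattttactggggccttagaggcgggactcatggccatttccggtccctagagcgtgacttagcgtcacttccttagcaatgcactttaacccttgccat
Gnptg: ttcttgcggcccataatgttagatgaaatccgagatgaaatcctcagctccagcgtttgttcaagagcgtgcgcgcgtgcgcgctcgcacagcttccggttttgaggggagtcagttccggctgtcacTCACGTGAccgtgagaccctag

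The enzymes that take glycosaminoglycans apart, the step that fails in MPS I, were split. Of 17, 5 rose and 2 fell (3 rises without DMSO replicate 1). Hyal1, the lysosomal hyaluronidase, rose from 10.31 and 10.52 to 12.56 and 12.53 (4.38-fold, log2 FC 2.13 ± 0.16, adjusted p = 9.6e-07), the largest change of the list. Tmem2, a cell-surface hyaluronidase, rose from 7.47 and 7.14 to 8.67 and 8.39 (2.33-fold, adjusted p = 0.0033). Hgsnat, the acetyltransferase of heparan sulfate breakdown, rose 1.78-fold, with adjusted p = 0.053 without DMSO replicate 1. Sgsh, the heparan sulfamidase, rose 1.41-fold at adjusted p = 0.049, which ranged from 0.067 to 0.27 when each of the 4 arrays was left out. Gusb, beta-glucuronidase, fell from 11.48 and 11.53 to 10.56 and 10.67 (0.540-fold, adjusted p = 0.00072), and Cemip, a hyaluronan-degrading protein outside the lysosome, from 12.19 and 11.92 to 10.51 and 9.93 (0.280-fold, adjusted p = 2.7e-05). Idua, the gene that carries the defect in these mice, read 7.65 and 7.43 against 7.73 and 7.69 (log2 FC 0.17 ± 0.14, adjusted p = 0.53). Ids (0.45, adjusted p = 0.056) and Naglu (0.51, adjusted p = 0.081), which also act on heparan sulfate, and Arsb (-0.27, adjusted p = 0.29) and Galns (0.18, adjusted p = 0.46), sulfatases of other steps, did not pass.

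**Figure D3:**
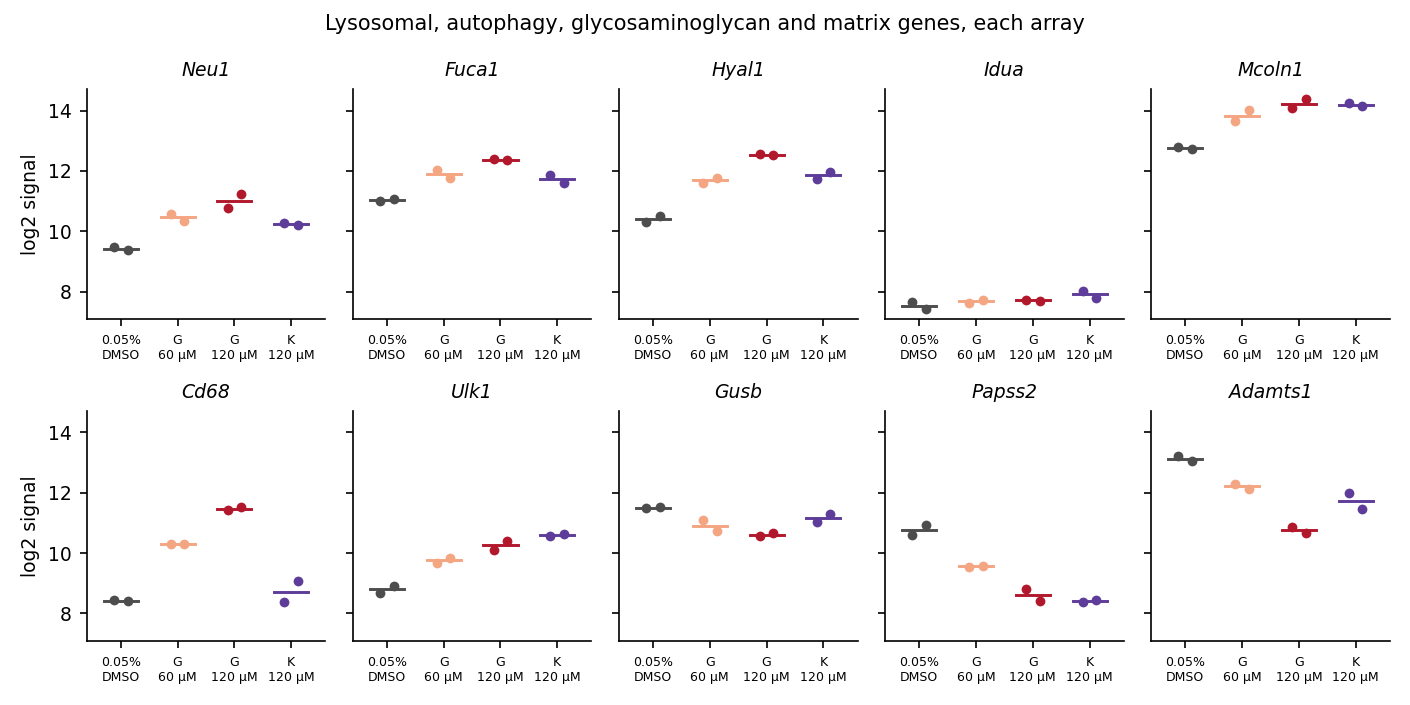
Log2 signal (vertical axis) of 10 genes of lysosomal degradation, autophagy, sulfate donor synthesis and matrix proteolysis on each array of 0.05% DMSO, 60 and 120 µM genistein (G) and 120 µM kaempferol (K). Points are arrays and lines are the means of 2; Neu1, Hyal1, Mcoln1 and Cd68 lie above DMSO at 120 µM genistein, Gusb, Papss2 and Adamts1 below it, and Idua at nearly the same level.

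Of 42 autophagy genes, 17 rose and 0 fell (median 0.41; 10 rises without genistein replicate 1 or DMSO replicate 1, and 23 higher and 0 lower at an unadjusted p under 0.05). Ulk1, the kinase that starts autophagosome formation, rose from 8.67 and 8.92 to 10.11 and 10.40 (2.76-fold, adjusted p = 0.00018), and Atg10, an enzyme of Atg12 conjugation, from 10.46 and 10.49 to 11.90 and 11.85 (2.64-fold, adjusted p = 5.5e-06). Gabarapl1 and Gabarapl2, which coat the autophagosome, rose 1.83 and 2.09-fold, and the cargo receptors Calcoco1 and Sqstm1 2.08 and 1.62-fold. Map1lc3b, LC3, rose 1.55-fold, with adjusted p = 0.11 without DMSO replicate 1 and 0.079 without genistein replicate 1. Wipi1 (log2 FC -0.07, adjusted p = 0.84) did not pass. TCACGTGA stood in 0 of the 14 risen autophagy genes with a window. The share over all windows was 1.4%, so a count of 0 in 14 does not set these genes apart. Autophagy genes that were not called were not counted.

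None of the factors that bind CLEAR rose in RNA, and the arrays do not show where their proteins lie in the cell. Tfeb read 6.54 and 6.57 in DMSO and 6.41 and 6.12 in genistein (log2 FC -0.28, adjusted p = 0.36), Tfe3 gave -0.23 (adjusted p = 0.49) and Mitf -0.15 (adjusted p = 0.64). The genistein arrays of Tfeb were not well above background and its DMSO arrays lay close to the limit, so its level was poorly measured. Tfec, the fourth of the family, fell from 7.63 and 7.95 to 6.81 and 6.58 (0.468-fold, adjusted p = 0.00053). Among regulators of the kinase mTOR, which holds TFEB in the cytoplasm, 2 moved by more than 4-fold in opposite directions. Ddit4, an inhibitor known as REDD1, rose from 9.20 and 8.69 to 11.40 and 11.74 (6.17-fold, adjusted p = 9.6e-07), and Deptor, another inhibitor, fell from 11.20 and 11.36 to 8.66 and 8.77 (0.169-fold, adjusted p = 1.2e-06). In all, 5 of the 20 genes of this group rose and 2 fell, with 3 rises without genistein replicate 1 or 2 or DMSO replicate 2. Of 9 galectins, which bind beta-galactosides, Lgals3 fell to 0.334-fold (adjusted p = 1.4e-05), Lgals9 to 0.512-fold and Lgals1 to 0.665-fold. Lgals9 was not called without DMSO replicate 2 or genistein replicate 2 (adjusted p = 0.061 each), nor Lgals1 without DMSO replicate 1 (0.075). Lgals8 rose 1.37-fold, with adjusted p of 0.051 to 0.25 when each array was left out.

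The synthesis of glycosaminoglycans showed single genes that changed, and no common direction. Of 56 genes, 10 fell and 8 rose, with a median log2 FC of -0.06; 4 fell and 5 rose without genistein replicate 1 or DMSO replicate 1. Papss2, which makes the sulfate donor PAPS, fell from 10.60 and 10.92 to 8.80 and 8.41 (0.224-fold, log2 FC -2.16 ± 0.17, adjusted p = 2.2e-06). Smaller falls were seen for Chst12, a chondroitin sulfotransferase (0.648-fold), Ndst2, a heparan N-sulfotransferase (0.655-fold), Dse, a dermatan sulfate epimerase (0.661-fold), and Ext1, a heparan polymerase (0.677-fold). Chst12, Dse and Ext1 each lost the call in 2 or 3 of the 4 fits without 1 array, with adjusted p of 0.053 to 0.082, and Ndst2 without genistein replicate 1 (0.091). Csgalnact1, which starts chondroitin chains, rose 1.81-fold (8.61 and 8.65 against 9.51 and 9.47, adjusted p = 0.0042), Chst2, a sulfotransferase, 2.00-fold (adjusted p = 0.0028) and Extl3, which starts heparan chains, 1.64-fold, with adjusted p = 0.055 without DMSO replicate 1. Chsy1, an enzyme of chain elongation (log2 FC 0.39, adjusted p = 0.14), and B4galt7, one of chain initiation (0.07, adjusted p = 0.88), did not pass. The hyaluronan synthases Has1 and Has2 were not well above background in either group.

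Of 27 core proteins and sulfatases of proteoglycans, 9 fell and 5 rose (3 rises without genistein replicate 1 or 2 or DMSO replicate 2). After Aspn, the largest falls were Fmod, fibromodulin (12.99 and 13.22 against 11.70 and 11.91, 0.406-fold, adjusted p = 0.00011), Gpc6, a glypican (0.470-fold) and Sdc3, a syndecan (0.511-fold). The 2 enzymes that clip sulfate from extracellular heparan moved apart. Sulf2 rose from 14.67 and 14.35 to 15.59 and 15.51 (2.05-fold, adjusted p = 0.00096), and Sulf1 fell to 0.521-fold, the latter at adjusted p of 0.052 to 0.085 without DMSO replicate 1 or 2 or genistein replicate 2. The abundant small proteoglycans Dcn (log2 FC 0.09, adjusted p = 0.78) and Bgn (0.13, adjusted p = 0.61) did not pass.

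**Figure D4:**
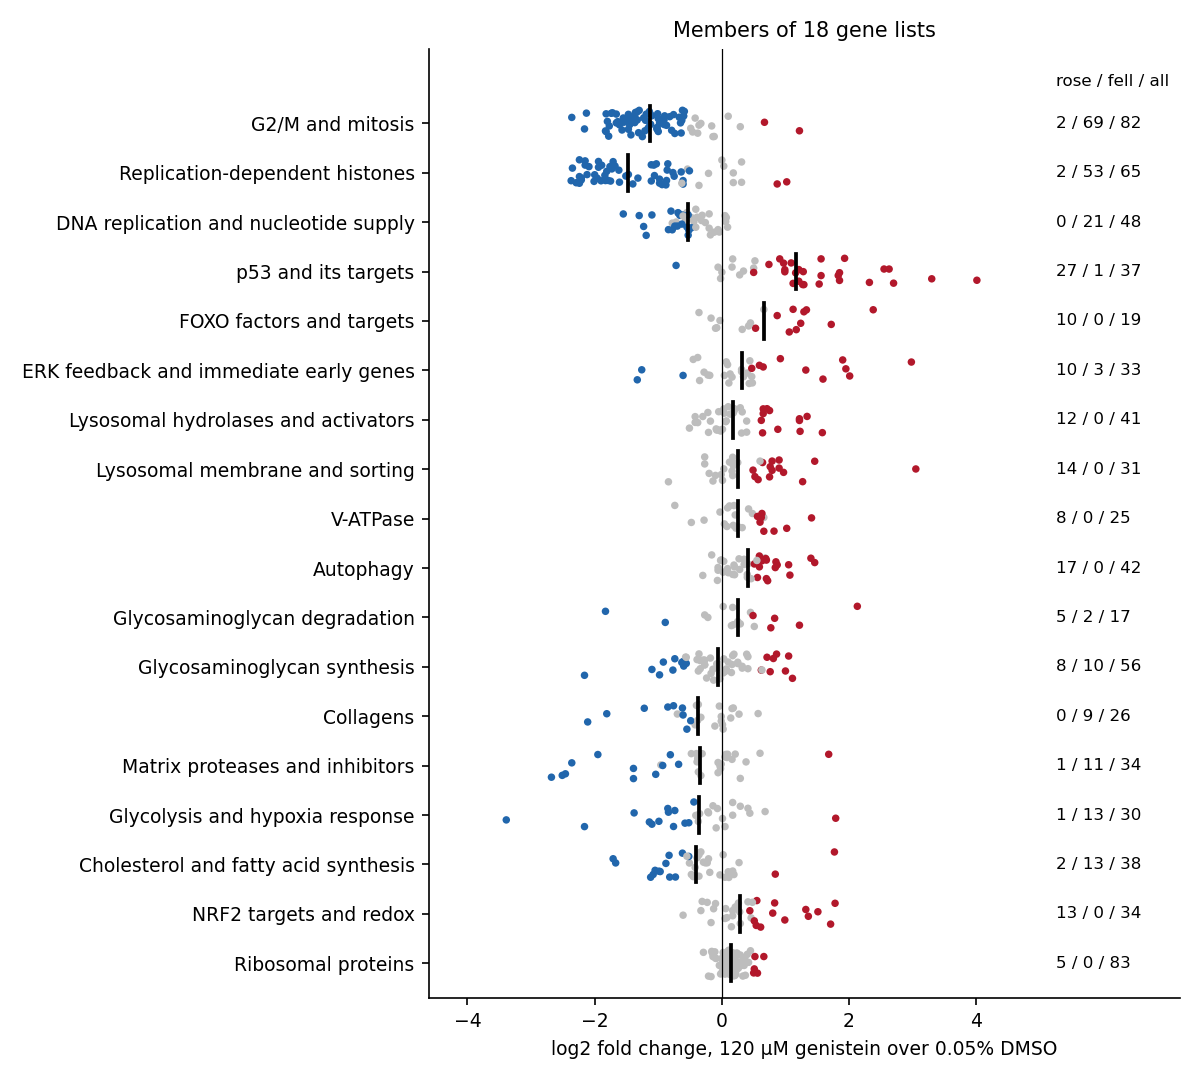
Log2 fold change of 120 µM genistein over 0.05% DMSO (horizontal axis) for the members of 18 gene lists. Each point is a gene (red rose, blue fell, grey did not pass), black bars are medians and the numbers at the right count the genes that rose, fell and were measured; the mitotic and histone lists lie left of 0, the p53 list right of it.

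Matrix genes fell in part and by moderate amounts. Of 26 collagens, 9 fell and 0 rose (median -0.37; 5 falls without genistein replicate 1 or DMSO replicate 1, and 4 without genistein replicate 2). At an unadjusted p under 0.05, 12 were lower and 1 higher. Col6a3 and Col6a2, chains of the microfibrillar collagen VI, fell to 0.231 and 0.430-fold, and Col11a1 to 0.285-fold. The most abundant chains changed less: Col1a1 went from 16.80 and 16.72 to 16.20 and 16.22 (0.683-fold, adjusted p = 0.0091), with adjusted p = 0.067 without DMSO replicate 1 and 0.052 without genistein replicate 1, and Col1a2 gave log2 FC -0.42 (adjusted p = 0.11). Of 41 other matrix and crosslinking genes, 14 fell and 2 rose. Besides Spp1, Mfap5, a microfibril protein, fell to 0.286-fold, Loxl1, a crosslinking oxidase, to 0.355-fold (15.58 and 15.65 against 14.16 and 14.08, adjusted p = 6.2e-06) and Tnc, tenascin-C, to 0.565-fold. Plod2, which hydroxylates collagen lysines, rose 2.27-fold (adjusted p = 0.00015), and Lamb1, a laminin chain named after its value was seen, rose with a log2 FC of 0.69. Fn1 (0.10, adjusted p = 0.71), Sparc (0.03, 0.91) and Postn (-0.15, 0.67) did not pass.

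Among matrix proteases and their inhibitors, 11 of 34 fell and 1 rose (median -0.35). Adamts1, an aggrecanase, fell from 13.21 and 13.05 to 10.87 and 10.67 (0.195-fold, adjusted p = 4.2e-06), Adam12, a membrane protease, to 0.259-fold and Timp1, a metalloprotease inhibitor, to 0.381-fold (adjusted p = 0.052 without genistein replicate 2). Plaur, the urokinase receptor, fell to at most 0.489-fold (7.52 and 7.99 against 5.33 and 5.16), and Plat, a plasminogen activator, to 0.524-fold. Mmp3, stromelysin-1, read 8.80 and 10.15 in DMSO and 6.77 and 7.26 in genistein; its DMSO arrays lay far apart, and the call was lost without DMSO replicate 2 (adjusted p = 0.14) or genistein replicate 1 (0.085). The gene that rose was Mmp11, stromelysin-3, at 3.21-fold (11.20 and 11.55 against 13.01 and 13.11, adjusted p = 0.00079). Mmp2 (log2 FC 0.08, adjusted p = 0.87) and Mmp14 (0.16, adjusted p = 0.46), the main gelatinase and its activator, did not pass.

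The contractile apparatus was less touched: 6 of 31 genes fell and 2 rose (3 falls without genistein replicate 2). Sorbs2, an adaptor of stress fibers, read 10.33 and 10.03 in DMSO and 5.56 and 6.14 in genistein, and Cnn1, calponin, 9.35 and 9.63 against 8.15 and 7.26 (0.290-fold, adjusted p = 0.0042, and 0.064 without genistein replicate 2). Smtn, smoothelin, fell to 0.387-fold. The markers of contractile fibroblasts Acta2 (log2 FC -0.14, adjusted p = 0.62), Tagln (0.10, adjusted p = 0.82) and Myl9 (-0.01, adjusted p = 0.99) did not pass. Of 28 genes of integrins and focal adhesions, 8 fell and 2 rose; the falls numbered 4 without genistein replicate 2 or DMSO replicate 2, and the rises 1 without either genistein array or DMSO replicate 1. The rises were Itga2, which was not well above background in either group, and Itga1, both alpha chains of collagen receptors; Itga1 rose 1.61-fold, with adjusted p of 0.082 to 0.22 without either genistein array or DMSO replicate 1. Itgbl1, an integrin-like secreted protein, fell from 13.97 and 13.77 to 11.22 and 11.06 (0.150-fold, adjusted p = 7.4e-07) and Itga11, a collagen receptor chain, to 0.390-fold (adjusted p = 0.00033). Of 18 targets of YAP and TEAD, 4 rose and 4 fell (1 fall without genistein replicate 2 or DMSO replicate 2, and 2 without DMSO replicate 1). The classic targets Cyr61 (0.04, adjusted p = 0.90), Ctgf (-1.06 ± 0.37, adjusted p = 0.075) and Ankrd1 (-0.28, adjusted p = 0.52) did not pass, while Ptpn14, a phosphatase that restrains YAP, rose 3.41-fold (adjusted p = 2.4e-06).

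Genes of transport and drug handling held several of the largest rises. Beside Slc16a6, Emb, embigin, a chaperone of monocarboxylate transporters, rose from 8.79 and 8.80 to 11.20 and 11.39 (5.65-fold, adjusted p = 4.7e-07), whereas the other chaperone, Bsg, gave log2 FC 0.12 (adjusted p = 0.62) and the transporter Slc16a1 0.12 (adjusted p = 0.83). Of 44 genes of drug metabolism, 10 rose and 3 fell (1 fall without genistein replicate 1 or DMSO replicate 2). The falls, named after their values were seen, were Aldh1a1, a retinaldehyde dehydrogenase (log2 FC -1.34), Akr1c18, an aldo-keto reductase (-1.29), and Ces1a, a carboxylesterase (-0.92). Ces2g and Ces2e, carboxylesterases, read 9.34 and 10.09, and 8.81 and 9.26, in genistein, and were not well above background in DMSO. Genes of the Ces2 cluster are near-identical, so their signals may be shared. Ugt1a2, a glucuronosyltransferase whose transcripts share exons with the rest of the Ugt1a cluster, rose 4.79-fold (10.11 and 10.07 against 12.12 and 12.58, adjusted p = 1.9e-06). Of 13 genes of the alpha-arrestins and the MLX network, 5 rose and 1 fell (median log2 FC 0.36). Arrdc3, an adaptor in receptor turnover, rose from 9.97 and 9.72 to 12.66 and 12.68 (7.07-fold, adjusted p = 1.3e-06), Txnip, which inhibits thioredoxin and glucose uptake, 2.20-fold (adjusted p = 4.3e-05) and Arrdc4 1.96-fold, whereas Arrdc1, also an arrestin-domain gene, fell to 0.485-fold (adjusted p = 0.0011).

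Of 34 targets of NRF2 and redox genes, 13 rose and 0 fell (8 rises without DMSO replicate 1, and 17 higher and 1 lower at an unadjusted p under 0.05). Gclc, the catalytic subunit of glutathione synthesis, rose from 10.80 and 10.94 to 12.49 and 12.82 (3.44-fold, adjusted p = 1.9e-06), Srxn1, sulfiredoxin, 3.28-fold (adjusted p = 8.9e-06), Txnrd1, thioredoxin reductase, 2.50-fold and Hmox1, heme oxygenase, 1.99-fold. The partner subunit Gclm gave log2 FC 0.17 (adjusted p = 0.49) and Nqo1 0.46 (adjusted p = 0.095). None of the 8 genes of the aryl hydrocarbon receptor and none of the 12 estrogen receptors and their classic targets passed limma's test, and 0 and 1 of them had an unadjusted p under 0.05. Without genistein replicate 1, 1 of the 8 rose and 1 of the 12 fell. Of the former 3 and of the latter 2 were well above background in a group. Esr1 read 6.26 and 6.51 against 6.06 and 6.06. Its DMSO arrays lay below or at the background limit and its genistein arrays below it, so its level was poorly measured. Esr2 and Cyp1a1 were not well above background in either group.

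Lipid and sugar metabolism shifted down in part. Of 38 genes of cholesterol and fatty acid synthesis, 13 fell and 2 rose (median -0.41; 7 falls without genistein replicate 1, and 6 without DMSO replicate 1). Elovl6, a fatty acid elongase, fell from 14.84 and 14.61 to 12.95 and 13.09 (0.306-fold, adjusted p = 4.7e-06), Stard4, a sterol carrier, to 0.314-fold and Mvk, mevalonate kinase, to 0.473-fold. Abca1, the cholesterol exporter, rose 3.42-fold (adjusted p = 3.6e-05), and Scap, the escort of SREBP named after its value was seen, rose with a log2 FC of 0.84. Of 30 genes of glycolysis and the hypoxia response, 13 fell and 1 rose (2 rises without DMSO replicate 2). Ldha and Ldhb, the chains of lactate dehydrogenase, moved apart: Ldha fell from 14.57 and 14.96 to 13.53 and 13.23 (0.383-fold, adjusted p = 8.2e-05) and Ldhb rose from 8.25 and 8.17 to 9.89 and 10.11 (3.46-fold, adjusted p = 3.7e-06). Eno3, an enolase, fell to at most 0.132-fold and Ndrg1, a hypoxia-responsive gene, to 0.224-fold. Hif1a (0.05, adjusted p = 0.88) and Gapdh (-0.09, adjusted p = 0.76) did not pass.

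Stress genes gave a mixed picture. Ddit3, the factor CHOP, rose from 11.94 and 12.01 to 14.11 and 14.16 (4.46-fold, log2 FC 2.16 ± 0.13, adjusted p = 3.6e-07), but of 26 genes of ATF4 and the amino acid response 5 rose and 5 fell. Atf4 itself gave log2 FC 0.10 (adjusted p = 0.75) and Asns, asparagine synthetase, -0.20 (adjusted p = 0.41), and the serine synthesis enzyme Phgdh fell to 0.439-fold (adjusted p = 0.00027). Of 22 genes of endoplasmic reticulum chaperones and the unfolded protein response, 4 rose and 1 fell (median 0.07; 2 rises without genistein replicate 2 or DMSO replicate 2). Atf6, a sensor of that response, rose 1.78-fold (adjusted p = 0.0018) and Dnajb9, a cochaperone, 1.63-fold (adjusted p = 0.0046). The other rises, Hyou1 (1.36-fold, adjusted p = 0.035) and Sdf2l1 (1.51-fold, adjusted p = 0.03), were the ones lost, Hyou1 also without either of the other 2 arrays. The chaperone Hspa5 (0.19, adjusted p = 0.40) did not pass, and Xbp1, a factor of the same response, fell to 0.455-fold (adjusted p = 0.00013). Of 15 heat shock genes, the chaperones Hsph1 rose 1.63-fold and Hspb1 fell to 0.392-fold, and 2 fell without genistein replicate 2 or DMSO replicate 1.

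Wnt and TGF-beta genes moved in both directions. In the Wnt list 10 of 43 fell and 5 rose (2 rises without genistein replicate 1, and 3 without DMSO replicate 1). After Lgr5 and Sfrp2, Rspo2, an R-spondin and so a ligand of Lgr5, fell from 12.23 and 12.16 to 10.03 and 9.79 (0.205-fold, adjusted p = 4.9e-06), and Dkk2, a Wnt inhibitor, to 0.390-fold. Apcdd1, also an inhibitor, rose 2.82-fold (adjusted p = 9.7e-05). In the TGF-beta and BMP list 8 of 42 rose and 8 fell (4 and 5 without DMSO replicate 1). Tgfbi, a matrix protein named for its induction by TGF-beta, fell from 9.41 and 9.76 to 7.00 and 6.77 (0.154-fold, adjusted p = 1.1e-06). The ligand Tgfb1 fell to 0.551-fold (adjusted p = 0.0077) and Tgfb3 rose 1.79-fold (adjusted p = 0.00066).

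The markers of the labelled cell type were present and partly lower. Of 13 fibroblast markers, 12 were well above background, with a mean log2 signal of 13.50 and 13.53 in DMSO and 13.10 and 13.08 in genistein. Of these, 6 fell (3 without genistein replicate 1 or DMSO replicate 1), among them Thy1 (15.42 and 15.39 against 14.25 and 14.35, 0.465-fold, adjusted p = 0.00016) and S100a4 (0.402-fold, adjusted p = 0.00066). None of the 9 keratinocyte, 6 skeletal muscle or 4 Schwann cell markers was well above background, and 1 of 6 endothelial, 1 of 6 melanocyte, 1 of 5 adipocyte and 1 of 4 T cell markers was. More were well above background in at least 1 group among the markers of macrophages (4 of 12), of smooth muscle and pericytes (3 of 5) and of cartilage and bone (4 of 7). In each of the last 2 lists 1 marker rose and 1 fell, among them Sox9, the chondrogenic factor, which fell to 0.357-fold (adjusted p = 1.6e-05), and Notch3, a receptor of pericytes, which rose at least 1.46-fold (adjusted p = 2.3e-05). The adipocyte marker was Fabp4, a fatty acid carrier, which fell from 9.69 and 9.64 to 7.16 and 6.54 (0.142-fold, adjusted p = 1.5e-05). Pparg, the adipogenic nuclear receptor, fell to 0.277-fold (adjusted p = 4.5e-06). The part of these shifts in the other changes was not tested.

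The response at 120 µM was then set directly against that at 60 µM genistein, which leaves out the shared control. The test called 786 clusters (3.54%), 348 higher (1.57%) and 438 lower (1.97%) at 120 µM. The count was 331 to 428 when 1 of the 4 arrays was left out, lowest without replicate 1 of 120 µM. Of the mitotic genes 54 of 82 were lower at 120 µM and 1 higher. Ccnb1 read 12.62 and 12.75 at 60 µM and 11.27 and 11.07 at 120 µM (difference in log2 signal -1.52, 95% interval -1.82 to -1.22, adjusted p = 8.5e-05), and Prc1 10.53 and 10.47 against 8.83 and 8.40 (-1.89, adjusted p = 0.00018). Immediate early genes were the counterpart, with 13 of 33 higher at 120 µM and 0 lower (20 and 1 at an unadjusted p under 0.05). Against DMSO the median log2 FC of this list was -0.24 at 60 µM and 0.31 at 120 µM, so part of the gap lay in lower levels at 60 µM. Dusp6 read 8.73 and 8.43 at 60 µM (difference 2.33, adjusted p = 0.00014), Junb 8.75 and 8.26 (1.72, adjusted p = 0.0022) and Jun 9.80 and 9.83 (1.64, adjusted p = 0.00045). Jun and Myc did not pass against DMSO at 120 µM. Both read lower at 60 µM than in DMSO, where Jun read 11.02 and 11.01 and Myc 14.43 and 14.87. Myc, the growth-promoting factor, read 13.49 and 13.21 at 60 µM and 15.09 and 14.98 at 120 µM (1.69, interval 1.22 to 2.15, adjusted p = 0.00081).

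Single genes with the widest gap between doses were Slc16a6 (6.23 and 6.74 at 60 µM, difference 4.24, adjusted p = 8.5e-05), Gas2 (9.53 and 9.76, difference -3.05, adjusted p = 3.7e-05), Igfbp5 (9.86 and 10.09, difference -2.63, adjusted p = 0.00016) and Ptn (11.10 and 11.24, difference -2.38, adjusted p = 8.5e-05). Serpinb8, a protease inhibitor, read 9.68 and 9.78 at 60 µM and 7.60 and 7.47 at 120 µM (-2.20, adjusted p = 8.5e-05). For the lysosome the test found little between doses: 0 of 41 hydrolases were called (3 higher and 2 lower at an unadjusted p under 0.05), and 1 of 31 membrane genes was, Cd68 (difference 1.18, adjusted p = 0.0048). Npc1 gave 0.24 (interval -0.06 to 0.54, adjusted p = 0.40) and Hgsnat 0.26 (-0.12 to 0.65, adjusted p = 0.49), and the intervals leave room for a moderately higher level at 120 µM. Hyal1 was higher at 120 µM by 0.86 (adjusted p = 0.0072). Cdkn1a (0.17, -0.11 to 0.46, adjusted p = 0.56) and Ccng1 (0.08, -0.22 to 0.37, adjusted p = 0.83), both p53 targets, were not called, while Pmaip1 (1.46, adjusted p = 0.0023), Btg2 (1.31, adjusted p = 0.0025) and Gadd45a (1.44, adjusted p = 0.0013) were higher at 120 µM.

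Kaempferol, a flavonol, was compared with genistein at the same 120 µM and 24 h; this was the only pair of compounds compared. The 2 molecules carry the hydroxyphenyl ring at different carbons of the chromone core, and kaempferol has an additional hydroxyl group on that core. Between them 2172 clusters differed (9.78%), 1014 higher (4.57%) and 1158 lower (5.22%) in genistein. The count was 1231 to 1577 when 1 of the 4 arrays was left out, lowest without replicate 1 of genistein. The widest differences with genistein lower were Prl2c2, a prolactin family member (5.85 and 5.84 in genistein, 11.45 and 11.75 in kaempferol, at most 0.034-fold, adjusted p = 5.1e-06), Gsta2, a glutathione transferase (5.16 and 4.53 against 10.64 and 10.09, at most 0.080-fold, adjusted p = 2.6e-07), and Igfbp5 (7.01 and 7.69 against 12.53 and 12.06, 0.0324-fold, adjusted p = 2e-07). Prl2c2 and Gsta2 have near-identical relatives and may share signal with them. Igfbp5 thus lay below DMSO in genistein, and in kaempferol above it (log2 FC 0.87, adjusted p = 0.040). Rgs2 (at most 0.230-fold) and Ednrb (at most 0.135-fold) were likewise lower in genistein. With genistein higher, Txnip read 15.05 and 15.01 against 11.88 and 11.95 (8.68-fold, adjusted p = 3.2e-08) and Tagln, transgelin, 14.61 and 14.42 against 11.30 and 11.54 (8.51-fold, adjusted p = 9.9e-07).

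By group, the contractile list differed in 1 direction: 16 of 31 were higher in genistein and 0 lower (18 and 1 at an unadjusted p under 0.05), with Myl9, a myosin light chain, at 4.16-fold (adjusted p = 0.00015) and Cnn1 at least 2.03-fold. Against DMSO the list median was -0.14 in genistein and -0.65 in kaempferol, so this was not a rise of the list in genistein. Tagln and Myl9 did not pass between genistein and DMSO. NRF2 targets leaned the other way, 17 of 34 lower in genistein and 3 higher. The median of that list against DMSO was 0.29 in genistein and 0.84 in kaempferol, so this was not a fall of the list in genistein. Gclm read 14.56 and 14.50 against 16.00 and 16.03 (0.357-fold, adjusted p = 1.2e-05) and Gsta4 11.41 and 12.27 against 15.61 and 15.26 (0.0824-fold). Of the mitotic genes 39 of 82 were lower in genistein and 0 higher (52 and 3 at an unadjusted p under 0.05), and of the immediate early genes 13 of 33 were higher and 1 lower. Ddit3 was 5.02-fold higher in genistein (14.11 and 14.16 against 11.90 and 11.72, adjusted p = 2.6e-07) and Cd68 6.76-fold (adjusted p = 1.8e-06). The wider stress list did not follow Ddit3: of 26 genes of ATF4 and the amino acid response, 12 were lower in genistein and 5 higher. Its median against DMSO was -0.16 in genistein and 0.42 in kaempferol, so part of the gap lay in higher levels in kaempferol.

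Other genes with large changes against DMSO showed no called difference between the compounds. Lgr5 differed by 0.04 (interval -0.43 to 0.51, adjusted p = 0.94), Mcoln1 by 0.03 (-0.33 to 0.40, adjusted p = 0.95), Emb by -0.05 (-0.40 to 0.30, adjusted p = 0.91), Deptor by -0.04 (-0.46 to 0.37, adjusted p = 0.94), Papss2 by 0.19 (-0.19 to 0.56, adjusted p = 0.60) and Cdkn1a by 0.13 (-0.16 to 0.41, adjusted p = 0.65). The intervals bound how far the compounds could differ on these genes, and do not show that they act alike. Gas2 differed by -0.66 (-1.18 to -0.13, adjusted p = 0.12).

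**Figure D5:**
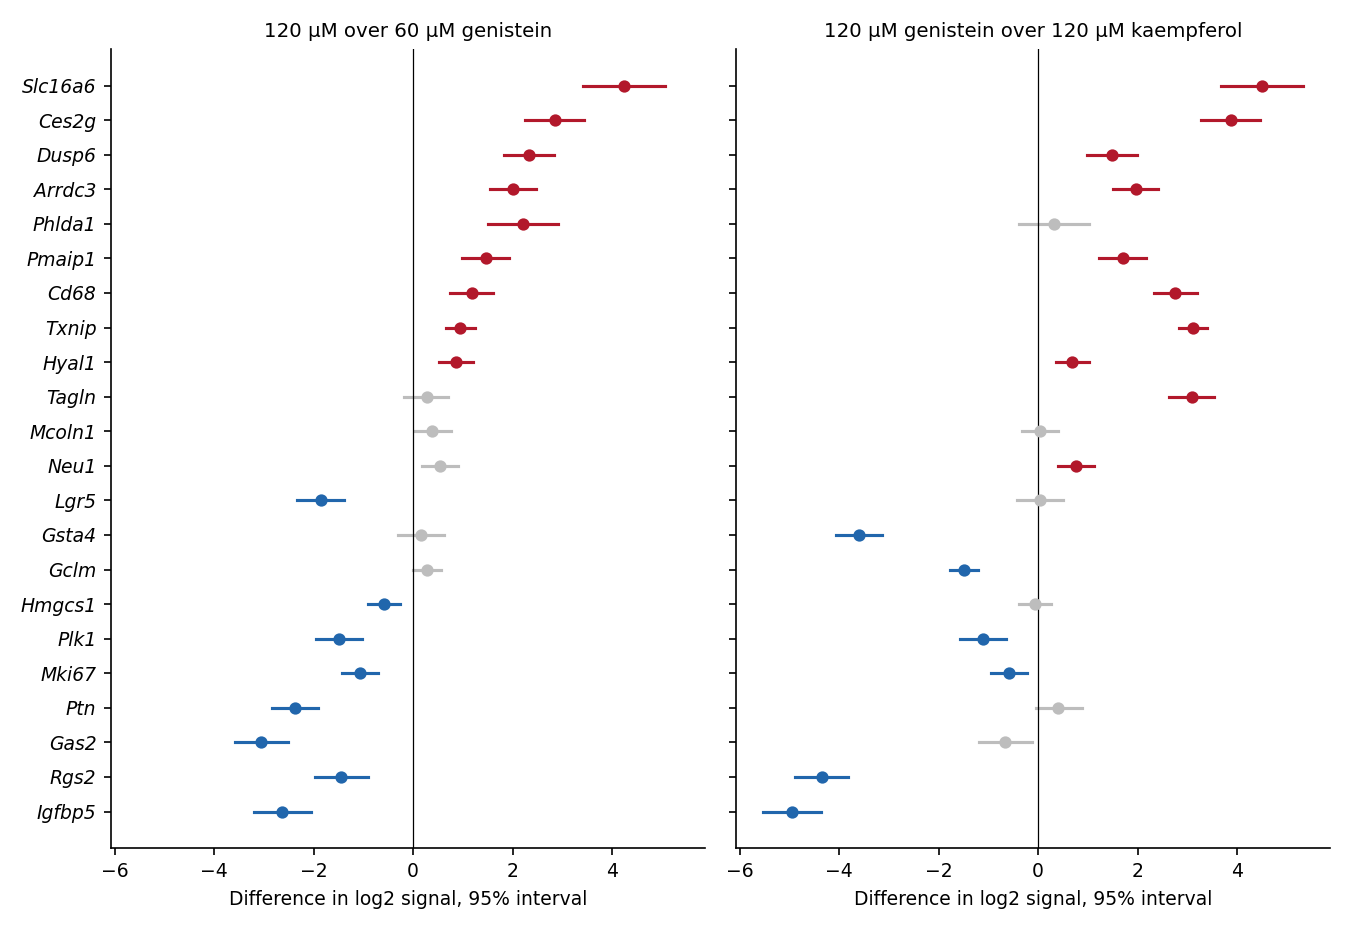
Difference in log2 signal (horizontal axes) for 22 genes between 120 and 60 µM genistein (left) and between 120 µM genistein and 120 µM kaempferol (right). Points are differences of means of 2 arrays and bars are 95% intervals, with red and blue past the test and grey not; Igfbp5 and Slc16a6 differ in both comparisons, while Lgr5 and Ptn were called between doses and not between compounds.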

How the data were processed

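RNA of 16 cultures of MPS I mouse fibroblasts was hybridised to Clariom S mouse arrays, 2 per group. The deposited values are log2 signals per probe set that the authors had background corrected, normalized across arrays and summarized by RMA in Affymetrix Expression Console and Transcriptome Analysis Console, which pulls arrays to a common distribution. No tool version or build is given in the sources used here. Of 3 biological replicates in the study's description, 2 arrays per group were analysed. An annotated workbook deposited with the values gave the gene symbols.

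Group means of all 16 arrays were fitted with limma 3.58.1 (R 4.3.3, lmFit, contrasts.fit and eBayes; 8 residual and 5.813 prior degrees of freedom), with Benjamini-Hochberg adjustment over 22203 clusters and a threshold of 0.05. The fit was tested on simulated data. A symbol with several clusters was represented by the brightest. Signals of 5222 negative control probe sets set the background, a rule chosen after the values were seen. Members and gene lists were chosen with earlier results of these data known, so the lists are described by counts and medians and carry no test of their own. Named genes were the 15 largest called changes in each direction with a group above background, preset members of each list with up to 5 further called members, and the 8 largest called differences in each direction between doses and compounds. Values of some list members are not reported here. Promoters came from RefSeq tables of GRCm38.p6. Alternatives changed the arrays fitted, the control, the replicate block, the prior, the brightness filter, the normalization, the null fold and the source table, and left out each array. Tables and plots were made with Python 3.11.15, pandas 2.3.3 and matplotlib 3.10.9.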

Additional observations from a re-analysis of the deposited data

How the results depend on the processing

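None of the 391 called genes among the 574 named changed sign under the alternatives tried, but the balance of rises and falls did turn. The 3495 calls against 0.05% DMSO became 2281 in a fit of only the 4 arrays and 1122 when the test asked for more than a 1.3-fold change (limma's treat), and 2240 to 2445 without 1 array. The share of rises was 50.5%, with 55.3% when each array was centred on its median, 47.1% with only the 4 arrays, 42% with treat and 47.1 to 48.9% without 1 array. Between doses the share higher at 120 µM was 44.3%, with 51.9% after centring and 32.2% with treat, and between genistein and kaempferol 46.7%, with 52.7% without kaempferol replicate 2. The 786 calls between doses became 257 with only the 4 arrays, 1337 with a trended and robust prior, 1361 over the brighter clusters alone, 118 with treat, and 331 to 428 without 1 array. The 2172 calls between genistein and kaempferol became 1053, 545 with treat, and 1231 to 1577 without 1 array. The call between the 2 solvents became 0 with only the 4 arrays, the replicate block, the trended prior, the brighter clusters and treat, and 0 to 0 without 1 array. By the fold criterion of the methods, above 1.3 or below 0.7, 5336 clusters passed, 5930 to 6162 without 1 array, of which 60.7% were higher; the limits are uneven on the log scale, and with 1.3 and its inverse 6520 passed, 49.7% of them higher.

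Replicate numbers did not pair the arrays: deviations of same-numbered arrays correlated at -0.136 to 0.142 (median 0.014), and at -0.06 between 120 µM genistein and 0.05% DMSO. With the replicate number as a block, 3480 clusters were called (1758 rises and 1722 falls). Of the 574 named genes, 9 changed their call under the block, 154 under treat and 67 with only the 4 arrays, 2 of these by passing.

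Against 0.1% DMSO 4410 clusters were called, 2858 of them among the 3495 in the same direction, and 17 of the 3495 had the opposite sign. Precision was limited by 2 arrays per group: the 95% interval of a log2 FC reached 0.40 to either side at the median, and 10592 clusters were not well above background in either group.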

Other observations

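Clock genes were higher in part. Of 19 genes of the circadian clock, 9 rose and 0 fell (median log2 FC 0.54; 13 higher and 0 lower at an unadjusted p under 0.05 by limma), with 4 rises without genistein replicate 1 or either DMSO array and 5 without genistein replicate 2. Nfil3, a repressor of clock output, read 8.58 and 8.57 in DMSO and 9.84 and 9.65 in genistein (2.25-fold, adjusted p = 0.00055), and Rora, an activator of the loop, 10.30 and 10.00 against 11.13 and 11.45 (2.21-fold, adjusted p = 0.0004). The core activator Arntl gave log2 FC 0.37 (adjusted p = 0.12) and Per2 0.54 (adjusted p = 0.092).

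Of 40 genes of axon guidance, 8 rose and 6 fell, with 5 rises without genistein replicate 1. The list held 6 class 3 semaphorins, secreted ligands that guide axons and migrating cells, of which 5 fell and 1 rose, a grouping made after the values were seen. Sema3a fell from 11.63 and 11.21 to 8.64 and 8.77 (0.153-fold, adjusted p = 9.2e-06), Sema3d to 0.231-fold, Sema3f to 0.276-fold and Sema3e to 0.331-fold. Sema3b (0.667-fold, adjusted p = 0.033) kept its call without 1 of the 4 arrays, DMSO replicate 1, and Sema3c, which rose 1.75-fold (adjusted p = 0.014), without DMSO replicate 2 alone. Ntn4, a netrin, rose from 9.45 and 9.86 to 12.26 and 11.88 (5.35-fold, adjusted p = 2.9e-06) and Sema6a, a membrane-bound semaphorin, 2.73-fold.

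Immune genes moved singly. Lif, a cytokine of the IL-6 family, rose 4.04-fold (6.53 and 7.00 against 8.87 and 8.69, adjusted p = 5.5e-06), while Ccl2 (log2 FC -0.43, adjusted p = 0.22) and Il6 (0.43, adjusted p = 0.19) did not pass. Of 29 genes of the interferon response and antigen presentation, 4 rose and 6 fell. Tap1, a peptide transporter, rose 4.41-fold and Ifit3, an antiviral effector, 2.91-fold, whereas Bst2, tetherin, fell to 0.303-fold and Ifih1, a sensor of viral RNA, to 0.441-fold.

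Most genes of the respiratory chain and of the ribosome did not pass the test. Of 85 genes of oxidative phosphorylation, 5 rose and 5 fell, and without 1 array the rises numbered 2 or 3 and the falls 1 or 2. Of 83 ribosomal proteins, 5 rose and 0 fell; 0 rose without either genistein array or DMSO replicate 1, and 1 without DMSO replicate 2.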
